A study of Sus scrofa with 6 samples.

Results

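AP-1 is a family of transcription factors that bind DNA as dimers of basic leucine zipper (bZIP) proteins. The family was read here from the rows of the deposited counts whose Ensembl identifier maps to 1 of 10 pig symbols: JUN, JUNB, JUND, FOS, FOSB, FOSL1, FOSL2, ATF3, BATF and MAFF. Of these, 5 were matched among the 25149 genes counted, namely JUNB, FOS, FOSL1, ATF3 and MAFF. JUN, FOSB, FOSL2 and BATF have an identifier in the table of gene names that matched no row, JUND has none in that table, and these 5 are not analysed here. The rule used no measured value, but the symbols were chosen with earlier results of these data known. All 5 matched genes passed the filter on low counts and are among the 17512 genes tested.

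The cells were wild-type Sertoli cells from the testes of neonatal pigs (NPSC), grown as a monolayer in DMEM with 10% fetal bovine serum. In baseline NPSC (n = 3 plates) part of the medium was exchanged for DMEM. In complement NPSC (n = 3 plates) it was exchanged for an equal volume of pooled human serum with its complement preserved, for 90 min. Both groups therefore held fetal bovine serum, and only complement NPSC held human serum, so that human complement and the other constituents of human serum cannot be told apart. The cells came from several litters whose testes were pooled within a litter, and the sources do not say which litter went to which plate. If plates of a group shared a litter, the spread between them is technical.

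AP-1 joins signals from MAP kinases to transcription. The JUN proteins can pair with each other or with FOS proteins, whereas FOS proteins need a partner from another subfamily. JUNB and FOS are immediate early genes, which respond to serum, growth factors and cytokines without new protein synthesis, and the FOS transcript is short-lived. FOSL1 (Fra-1) is a FOS relative that accumulates later and lacks the strong activation domain of FOS. ATF3 is a stress-induced bZIP factor that often represses its targets. MAFF is a small MAF protein with a bZIP domain but no activation domain, and it acts mainly through its partners. In Sertoli cells, JUN and FOS family genes are known to respond to follicle-stimulating hormone and to serum.

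The libraries held 3641518 to 8371923 counts on genes, and each complement NPSC library held fewer than any baseline NPSC library. Counts on 48 olfactory receptor genes, which testis somatic cells are not known to use, gave a density per kb of exon, in CPM on the raw library totals, of 1.18 to 2.15 for baseline NPSC and of 1.51 to 4.43 for complement NPSC. Complement replicates 1 and 2 stood apart with 4.01 and 4.43. On the first principal component, with 61.6% of the variance, they lay at −53.4 and −59.7, while complement replicate 3 lay at 22.0, between the baseline NPSC libraries at −5.62, 34.2 and 62.6. Background expected from this density and the exon length came to 1.21% of the counts of JUNB, 1.82% for FOSL1, 2.99% for FOS, 5.03% for ATF3 and 8.90% for MAFF.

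The Sertoli cell markers counted (9 of 13 listed) had a summed level of 1657 to 2587 CPM per kb in the baseline libraries and 1084 to 1296 in the complement libraries. CLU made up most of this sum in both groups, with means of 1519 CPM per kb in baseline and 852 in complement NPSC (adjusted p = 0.331 by edgeR). None of the 9 markers was at 0. For 4 of 9 the complement libraries all lay below the baseline libraries, against 8.14% of all tested genes. These 4 were CLU, INHA, GATA4 and WT1, while TF, DHH and DMRT1 had log2 fold changes of 0.94, 0.63 and 0.12. The Leydig cell markers (4 of 6, with CYP11A1 at 0 counts) summed to 1042 to 1274 in baseline and 789 to 854 in complement NPSC, mostly INSL3, and all 3 tested were lower in each complement library than in the baseline libraries. The peritubular myoid markers (5 of 5, with MYH11 at 0) summed to 1685 to 2555 and 1356 to 2447, mostly ACTA2 and TAGLN. Transcripts used as markers of other testis cells were thus counted as well, and which cells held them was not tested. Endothelial (3 of 5), germ cell (4 of 6) and macrophage markers (4 of 6) were lower, at 71.3 to 110.1, 84.1 to 129 and 36.2 to 45.5 in baseline NPSC and 50.6 to 120.0, 64.4 to 101 and 25.9 to 43.3 in complement NPSC. No gene of these lists passed the test, and the part of these cells in the results on AP-1 was not tested. In bulk RNA, fewer cells of a type and less RNA per cell cannot be told apart.

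Among the 5 AP-1 members, JUNB rose in complement NPSC, 2.69-fold, and FOS stood at the same mean in both groups. FOSL1, ATF3 and MAFF had higher means in complement NPSC, 1.36-, 1.48- and 1.52-fold on the fitted scale, and did not pass the test, which had no replicate block. A replicate block in edgeR gave adjusted p of 0.00925 for ATF3 and 0.00337 for MAFF, in a fit that called 2515 genes in all. The call was an adjusted p under 0.05 in edgeR's quasi-likelihood test, adjusted by Benjamini-Hochberg across every gene in the test. By this rule 1 of 5 members was called, in the higher direction, against 0.0914% of all tested genes called higher and 0.103% called in either direction. The DESeq2 Wald test also called 1 of 5 higher, JUNB, against 0.269% called higher among the genes it gave an adjusted p. All 3 complement NPSC libraries lay above all 3 baseline NPSC libraries for 2 of 5 members, JUNB and MAFF, against 8.95% of all tested genes. At an unadjusted p under 0.05, 3 of 5 members were higher (JUNB, MAFF and ATF3), against 10.9% of all tested genes.

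**Figure D1:**
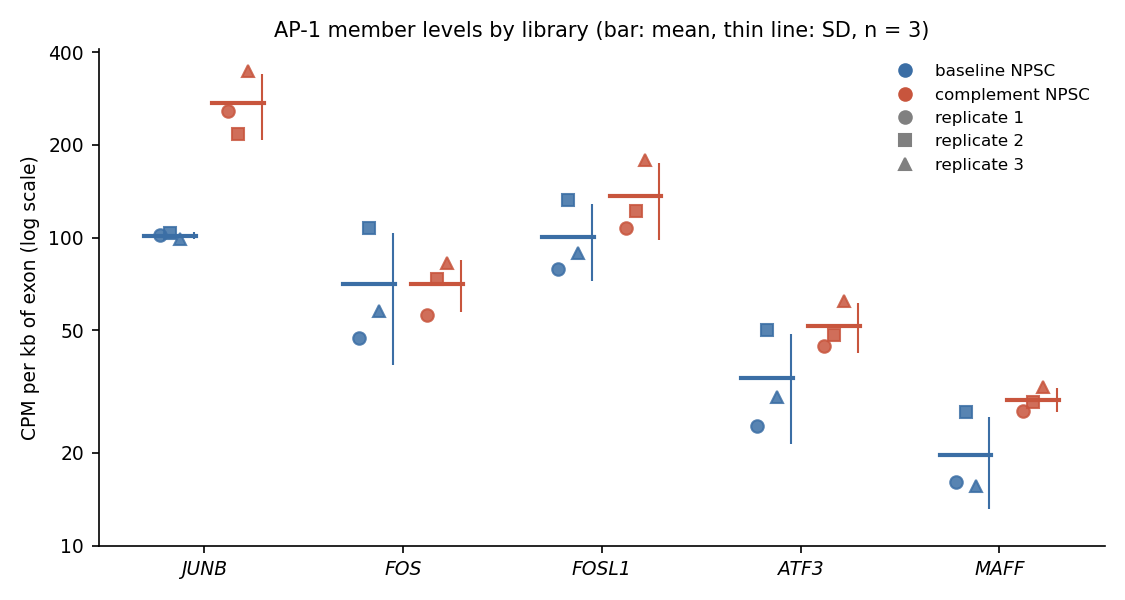
Levels of the 5 AP-1 members in each library, in CPM per kb of exon on a log axis (blue baseline NPSC, red complement NPSC, marker shape the replicate number, thick bar the mean and thin line the SD of 3 libraries). JUNB in complement NPSC (217 to 347) lies clear of baseline NPSC (98.8 to 103.7), and the 2 groups of FOS overlap.

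JUNB (ENSSSCG00000013735) lies on chromosome 2 from 66505144 to 66507024, on the plus strand, as 1 exon of 1881 bp without an intron. These and all later coordinates are those of the files, whose genome build is not named; their chromosome 1 has an exon ending at 315294641, whereas the final gene of that chromosome in the RefSeq table of Sscrofa11.1 ends at 274280750. The gene had 1328, 1260 and 1410 counts in baseline NPSC, against 2171, 1710 and 3760 in complement NPSC. Scaled to the TMM-normalized library size this was 192.5, 195.1 and 185.8 CPM in baseline NPSC and 483, 408 and 653 CPM in complement NPSC. The lowest complement NPSC library held more than 2 times the CPM of the highest baseline NPSC library. The means were 191 ± 4.79 CPM and 515 ± 126 CPM (SD, n = 3 each), a log2 fold change of 1.43 (SE 0.25, 95% interval 0.89 to 1.97, adjusted p = 0.0455 by edgeR). JUNB held rank 16 of the 17512 genes by p and rank 240 by log2 fold change.

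The spread of JUNB differed between the groups. The coefficient of variation was 2.5% in baseline NPSC, where counting error alone gives 2.74%, and 24.4% in complement NPSC, where it gives 1.98%. Complement replicate 3, the library nearest to baseline NPSC on the first principal component, had the highest JUNB, and without it the log2 fold change was 1.19 (adjusted p = 0.0282, edgeR). The adjusted p lay close to the threshold and the call was lost without baseline replicate 2 (0.387), without baseline replicate 3 (0.300) and without complement replicate 1 (0.0758), at log2 fold changes of 1.43, 1.40 and 1.47. DESeq2's size factors in the same edgeR test gave an adjusted p of 0.0597 at a log2 fold change of 1.42. In all, JUNB was called in 12 of 16 fits, the one given above included, with log2 fold changes of 1.19 to 1.70 over the alternatives. With olfactory receptor density as a covariate the log2 fold change was 1.70 (adjusted p = 0.000929, edgeR) and after subtraction of the expected background it was 1.69 (adjusted p = 0.00342, edgeR).

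FOS (ENSSSCG00000002383) lies on chromosome 7 from 104293657 to 104297121, on the plus strand, with 4 exons and 2144 bp of exon. It had 699, 1493 and 937 counts in baseline NPSC, against 541, 659 and 1025 in complement NPSC, or 101.3, 231 and 123 CPM and 120.4, 157 and 178 CPM. Baseline replicate 2 held the highest value of all 6 libraries and baseline replicate 1 the lowest, so the complement NPSC libraries lay inside the range of baseline NPSC. The means were 152 ± 69.4 CPM and 152 ± 29.2 CPM (SD, n = 3 each). The fitted difference was 0.00039 on the log2 scale (SE 0.28, adjusted p = 1.00 by edgeR), and its 95% interval, −0.60 to 0.60, holds changes of up to 1.52-fold in either direction. Without baseline replicate 2 the log2 fold change was 0.42 (adjusted p = 0.631, edgeR), and without baseline replicate 1 it was −0.23 (adjusted p = 0.594, edgeR), so its sign turned with single libraries. The coefficient of variation in baseline NPSC, 45.7%, was the largest of the 5 members, against 3.10% from counting error.

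FOSL1 (ENSSSCG00000012967) lies on chromosome 2 from 5534025 to 5541866, on the plus strand, with 5 exons and 3555 bp of exon. In CPM it stood at 282, 470 and 317 in baseline NPSC and at 381, 433 and 637 in complement NPSC. Baseline replicate 2 lay above complement replicates 1 and 2, so the groups overlap. The means were 356 ± 99.9 CPM and 484 ± 135 CPM (SD, n = 3 each), with a log2 fold change of 0.44 (SE 0.29, 95% interval −0.17 to 1.05, adjusted p = 0.427 by edgeR). The exons of CCDC85B, 609 bp on the opposite strand, lie wholly inside those of FOSL1, and CCDC85B had 0 counts in all 6 libraries. The strand setting of the counting is not given in the sources used here, and how reads in those 609 bp were assigned was not tested.

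ATF3 (ENSSSCG00000015595) lies on chromosome 9 from 143690556 to 143703872, on the plus strand, with 4 blocks of exon and 2274 bp. It stood at 55.5, 114 and 68.9 CPM in baseline NPSC and at 101.04, 110.2 and 142 CPM in complement NPSC. Only baseline replicate 2 reached the complement NPSC range. The means were 79.6 ± 30.8 CPM and 118 ± 21.4 CPM (SD, n = 3 each), a log2 fold change of 0.57 (SE 0.25, 95% interval 0.026 to 1.11, adjusted p = 0.314 by edgeR).

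MAFF (ENSSSCG00000030165) lies on chromosome 5 from 6966174 to 6978549, on the minus strand, with 3 blocks of exon and 2145 bp. It was the lowest of the 5 members, with 239, 375 and 255 counts in baseline NPSC, against 264, 263 and 405 in complement NPSC. In CPM these were 34.6, 58.1 and 33.6 against 58.8, 62.7 and 70.3, so the groups did not overlap, by a margin of under 1 CPM between baseline replicate 2 and complement replicate 1. The means were 42.1 ± 13.8 CPM and 63.9 ± 5.89 CPM (SD, n = 3 each), a log2 fold change of 0.61 (SE 0.22, 95% interval 0.13 to 1.08, adjusted p = 0.282 by edgeR).

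A single library recurs in these values. Baseline replicate 2 had the highest CPM of the baseline NPSC libraries for all 5 members, by a wide margin for FOS, FOSL1, ATF3 and MAFF and within counting error for JUNB. Without it the log2 fold changes were 0.68 for FOSL1, 0.90 for ATF3 and 0.89 for MAFF, and their adjusted p were 0.592, 0.588 and 0.534 (edgeR), in a fit that called 9 genes in all. Complement replicate 3 had the highest CPM of the 6 libraries for 4 of 5 members, FOS being the exception, and without it the log2 fold changes were 0.16 for FOSL1, 0.38 for ATF3 and 0.50 for MAFF. The treatment of background moved the members too. With olfactory receptor density as a covariate the log2 fold changes were 0.43 for FOS, 0.90 for FOSL1, 1.00 for ATF3 and 0.83 for MAFF, and after subtraction of the expected background they were 0.26, 0.69, 0.83 and 0.85. None of these passed the test (adjusted p of 0.199 to 0.923, edgeR). FOSL1, ATF3 and MAFF kept a positive log2 fold change in all 15 alternative fits.

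**Figure D2:**
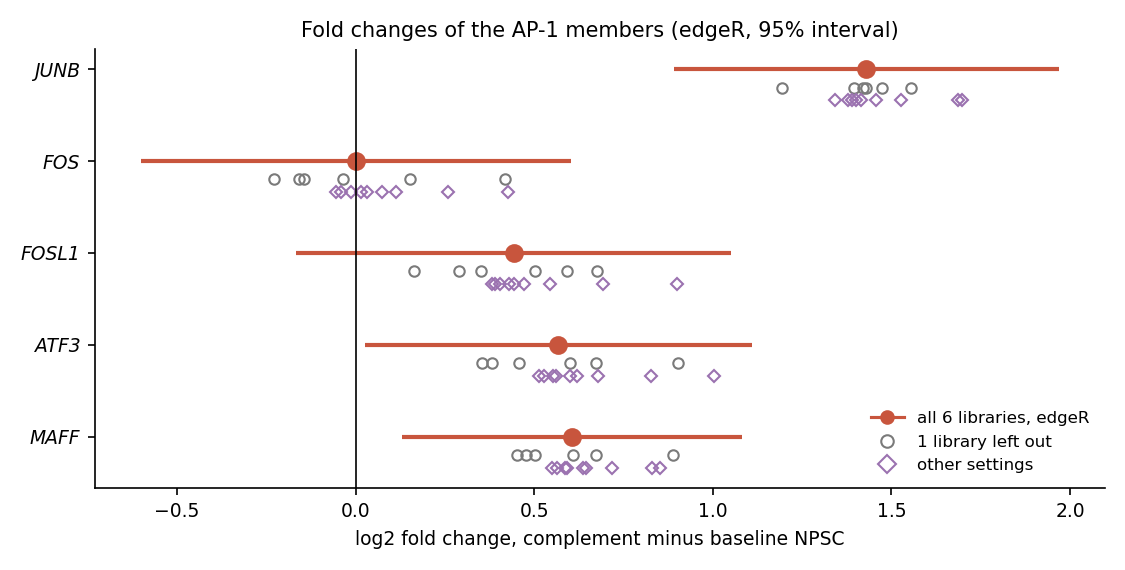
Log2 fold change of each AP-1 member, complement minus baseline NPSC (red point and line, edgeR estimate with its 95% interval from all 6 libraries; open circles, fits without 1 library; open diamonds, fits with another normalization, filter, test or covariate). JUNB stays between 1.19 and 1.70, FOS falls on both sides of 0, and the other 3 stay above 0.

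Levels of different genes were compared per kb of exon. In baseline NPSC the order of the mean levels was JUNB (102 ± 2.54 CPM per kb), FOSL1 (100.2 ± 28.1), FOS (70.9 ± 32.4), ATF3 (35 ± 13.5) and MAFF (19.6 ± 6.44). The ranges of each neighbouring pair in this order overlapped between libraries, and JUNB and FOSL1 did not differ beyond their spread. Within each of the 6 libraries, FOSL1 lay above FOS, FOS above ATF3 and ATF3 above MAFF. If the 609 bp shared with CCDC85B are left out of its length, FOSL1 comes to 121 ± 33.9 CPM per kb and stands first by its mean. In complement NPSC the order was the same, with JUNB at 274 ± 66.8, FOSL1 at 136 ± 38.1, FOS at 70.8 ± 13.6, ATF3 at 51.8 ± 9.43 and MAFF at 29.8 ± 2.75 CPM per kb. Here JUNB lay above FOSL1 in every library, also with the shorter length (164 ± 45.9). FOS and ATF3 were the only neighbours whose ranges overlapped, 56.2 to 83.04 against 44.4 to 62.4 CPM per kb.

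The 5 members together summed to 270, 421 and 291 CPM per kb in baseline NPSC and to 492, 490 and 705 in complement NPSC. JUNB made up 38.0%, 24.6% and 33.9% of this sum in the baseline NPSC libraries and 52.2%, 44.3% and 49.3% in the complement NPSC libraries. FOS made up 17.5% to 25.6% in baseline NPSC and 11.4% to 15.0% in complement NPSC. FOSL1 made up 29.4% to 31.4% and 21.8% to 25.4%. The shares of ATF3 and MAFF overlapped between the groups. Shares of a sum are bound to each other, so the share of a member can be smaller without a lower level: FOS had nearly the same mean CPM per kb in both groups, and FOSL1 a higher one in complement NPSC. The sums hold only the 5 counted members, not the whole of AP-1.

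**Figure D3:**
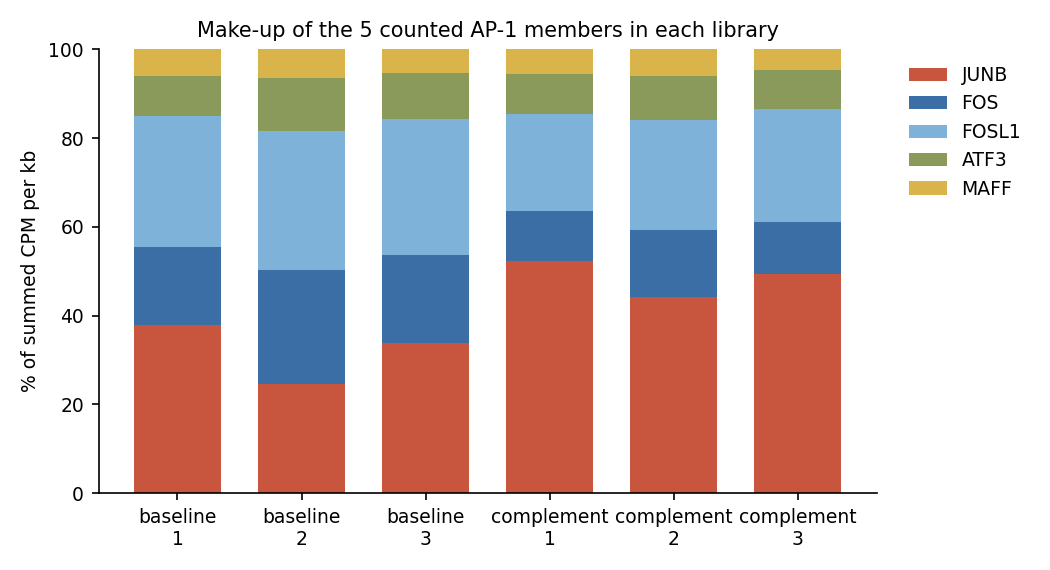
Share of each AP-1 member in the summed level of the 5 counted members, in % of CPM per kb, for each library (stacked bars). The share of JUNB is 24.6% to 38.0% in baseline NPSC and 44.3% to 52.2% in complement NPSC, while those of FOS and FOSL1 are smaller in complement NPSC, where their mean levels (70.8 and 136 CPM per kb) are not below those in baseline NPSC beyond the spread (70.9 and 100.2).

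Ratios between members within a library were compared because they take out what a library shares over all members. Of the 10 pairs, 6 had ratios that did not overlap between the groups, the 4 pairs with JUNB and the pairs of FOS with ATF3 and with MAFF, against 16.4% of all pairs of tested genes. The 4 pairs share JUNB, which was called higher by itself, and the other 2 share FOS, so the 6 are not separate observations. With 3 plates against 3 the smallest two-sided exact permutation p is 0.1, which all 6 pairs reached, or 0.167 after Benjamini-Hochberg adjustment over the 10 pairs, so this test could not bring any pair under 0.05 with these plates. The log2 ratio of JUNB to FOS was 0.92, −0.24 and 0.59 in baseline NPSC, against 2.00, 1.37 and 1.87 in complement NPSC, a difference of 1.33 between the means. For JUNB to FOSL1 the difference was 0.96, for JUNB to ATF3 0.78 and for JUNB to MAFF 0.76. The log2 ratio of FOS to ATF3 was 0.86, 1.01 and 0.84 in baseline NPSC, against 0.25, 0.51 and 0.33 in complement NPSC, a difference of −0.54. That of FOS to MAFF differed by −0.57. The ratio of ATF3 to MAFF differed by −0.026 (exact permutation p = 0.9), with SDs of 0.19 and 0.12 on the log2 scale.

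Over the 6 libraries the log2 CPM of FOSL1, ATF3 and MAFF ran close together, with Pearson's r of 0.956 for FOSL1 and ATF3, 0.959 for ATF3 and MAFF and 0.887 for FOSL1 and MAFF. JUNB ran with them less closely (0.691 to 0.792), as did FOS (0.672 to 0.790), and JUNB and FOS had the lowest r of the 10 pairs (0.155). These are descriptions over 6 libraries that share condition, depth and background. The genes whose profile over the 6 libraries was most like that of JUNB, among 11049 other tested genes with a symbol, were DUSP10 (r = 0.998), NR4A3 (0.994), MSC (0.993), MLKL (0.988) and CCL2 (0.985), and 99 genes had an r over 0.9. DUSP10 is a phosphatase that inactivates JNK and p38 MAP kinases, NR4A3 an orphan nuclear receptor of the immediate early class, MSC a bHLH factor, MLKL the effector of necroptosis and CCL2 a monocyte chemokine. DUSP10, NR4A3 and MSC passed the test (log2 fold changes of 1.21, 2.97 and 1.55), and MLKL and CCL2 did not (adjusted p = 0.261 for both, edgeR).

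The genes beside the members did not pass the test. Among 16 named neighbours (the 2 nearest on each side, and CCDC85B), 14 were tested, with log2 fold changes from −0.53 to 0.92 and a lowest adjusted p of 0.269 (edgeR). JUNB lies between HOOK2 and PRDX2. PRDX2, a peroxiredoxin gene 2612 bp away on the other strand, had 291 CPM in baseline and 224 CPM in complement NPSC, and HOOK2, 11725 bp away, had 18.7 and 35.6 CPM (adjusted p = 0.412 and 0.269, edgeR). In the RefSeq table of Sscrofa11.1, 14 of the 16 named neighbours lie within 5 genes of the same member, with at least 1 for each of the 5 members.

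Other bZIP factors that pair or compete with AP-1 did not pass the test: of 16 counted (29 listed), 15 were tested, 0 were called in either direction, and their median log2 fold change was −0.15, against 0.018 over all tested genes and 0.57 over the 5 AP-1 members. NFE2L2, the regulator of antioxidant genes and a partner of small MAF proteins, stood at 87.5 CPM per kb in baseline and 63.9 in complement NPSC. ATF6B, a sensor of endoplasmic reticulum stress, stood at 77.4 and 60.9, and CREB5 at 48.0 and 63.3 CPM per kb. BATF3, a close relative of BATF, had under 1 CPM per kb in both groups and was not tested.

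Of the MAP kinase cascade upstream of AP-1, 24 genes were counted and tested (31 listed), and 1 rose, against 0.0914% of all tested genes called higher. The gene that rose was MAP3K8 (TPL2), a kinase that activates the ERK pathway. It had 5.90 CPM per kb in baseline and 14.9 in complement NPSC (log2 fold change 1.34, SE 0.22, adjusted p = 0.0306 by edgeR). Background expected from the olfactory receptor density came to 21.7% of its counts. The remaining 23 genes had no call, and the median of the list was −0.065. MAPKAPK2, a substrate of p38, stood at 64.5 CPM per kb in baseline and 64.1 in complement NPSC, and MAP2K2 at 36.0 and 31.8. The JNK genes MAPK8 and MAPK9 stood at 23.9 and 25.8 CPM per kb in baseline and at 21.6 and 23.6 in complement NPSC. These are transcript levels and say nothing of phosphorylation.

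The transcription factors known to act on the FOS and JUN promoters had 0 calls among 11 tested, at log2 fold changes whose median was −0.19 and whose range was −0.35 to 0.14. SRF, which holds the serum response element of FOS, stood at 38.7 CPM per kb in baseline and 38.0 in complement NPSC. STAT3, SP1 and TCF3 had the highest mean over all 6 libraries, at 100.8, 50.6 and 44.9 CPM per kb in baseline and 85.2, 39.8 and 38.6 in complement NPSC, where ELK3, a partner of SRF, lay above SP1 and TCF3 at 42.07. Genes of AP-1 degradation and co-regulation had 0 calls among 11 tested (median −0.36). In that list GSK3B, EP300 and CREBBP had the highest mean over all 6 libraries, and NFATC2, which binds DNA together with AP-1, stood at 13.9 and 28.5 CPM per kb (log2 fold change 1.04, adjusted p = 0.261 by edgeR).

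Of the genes known as AP-1 targets, 24 were counted (31 listed), 22 were tested and 2 rose, against 0.0914% of all tested genes called higher. The list was chosen with earlier results of these data known. PTGS2, the inducible cyclooxygenase, stood at 11.2 and 129 CPM per kb, and VEGFA, the angiogenic growth factor, at 24.5 and 58.4 (log2 fold changes of 3.53 and 1.25, adjusted p = 0.000677 and 0.0206, edgeR). The list's median was 0.24, and FOSL1 is one of its members. The matrix metalloproteinases of the list had no call: the log2 fold changes were 1.79 for MMP13, −1.21 for MMP9 and 0.016 for MMP1, at adjusted p of 0.314, 0.272 and 0.972 (edgeR). Complement replicate 3 stood apart for MMP13, at 3.30 CPM against 122 and 157 CPM in complement replicates 1 and 2, and for MMP9, at 23.1 CPM against 103 and 111 CPM. The means of baseline NPSC were 26.9 ± 22.6 CPM for MMP13 and 181 ± 79.0 CPM for MMP9 (SD, n = 3). CCL2, TIMP1 and LMNA, the highest of the list, stood at 414, 289 and 240 CPM per kb in baseline and at 799.95, 311 and 192 in complement NPSC and did not pass the test. IL6 was listed at 0 counts in all 6 libraries. Several of these genes are known to be controlled by other factors too.

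Other immediate early genes stood beside the AP-1 members as follows. Of 6 EGR, NR4A and BTG genes tested, 4 rose (EGR1, EGR3, NR4A2 and NR4A3, at log2 fold changes of 2.02, 2.06, 1.21 and 2.97). Over all tested genes, 0.0914% were called higher. The median of these 6 genes was 1.62, against 1 of 5 called and a median of 0.57 for AP-1. Of 4 IER genes, 0 rose and IER5L fell (log2 fold change −1.27, adjusted p = 0.0375, edgeR), against 2 of 17512 tested genes called lower. IER3 stood at 193 CPM per kb in baseline and 548 in complement NPSC (adjusted p = 0.0891, edgeR). KLF4 and KLF10 had log2 fold changes of −0.30 and 0.08 and no call. Whether these families differ from AP-1 was not tested.

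**Figure D4:**
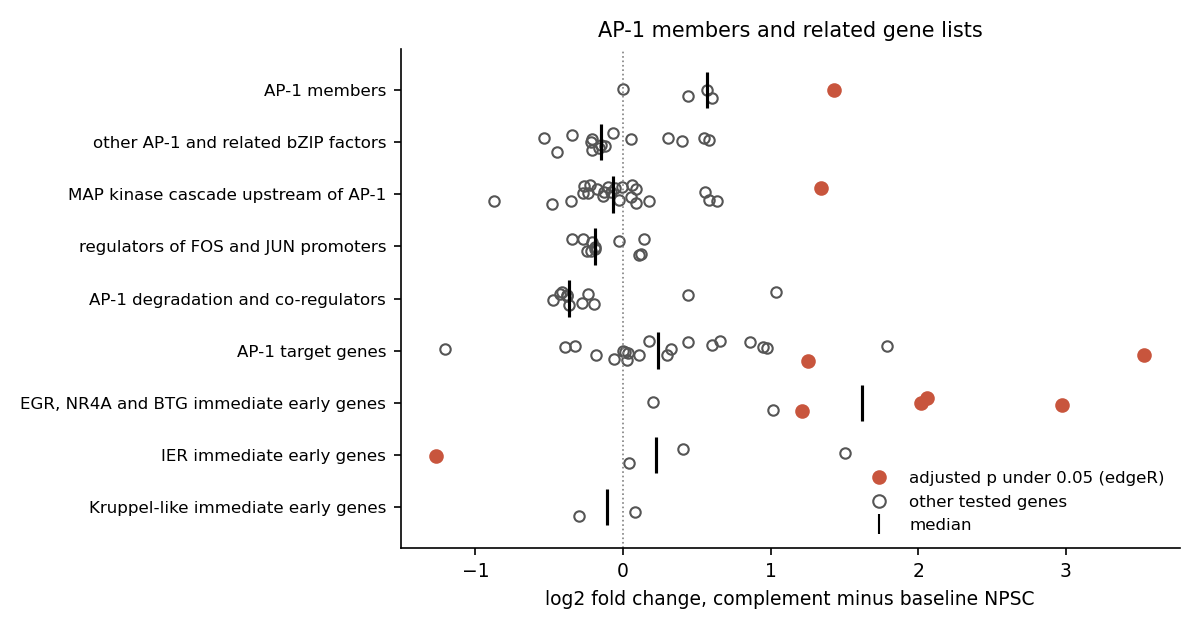
Log2 fold change, complement minus baseline NPSC, of the tested genes of each list (filled red, adjusted p under 0.05 by edgeR; open, other tested genes; black tick, median; vertical jitter carries no value). JUNB is the filled point of the AP-1 members at 1.43, and the EGR, NR4A and BTG list has 4 filled points and a median of 1.62.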

How the data were processed

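RNA sequencing counts of 6 libraries were used (3 baseline NPSC, 3 complement NPSC, grouped by their titles). The authors deposited raw counts per Ensembl gene, without normalization, with the summed exon length; the submitters' processing notes name Trimmomatic 0.36, STAR 2.5.2b and featureCounts of Subread 1.5.2. The genome build is not given in the sources used here. Identifiers were paired with symbols for 11804 of 25149 genes.

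Counts were tested with edgeR 4.0.16 (R 4.3.3): filterByExpr, TMM, glmQLFit and the quasi-likelihood F-test over 17512 genes, without a replicate block, with Benjamini-Hochberg adjustment. CPM is counts over the TMM-scaled library size (for olfactory receptor density, over the raw total), log2 CPM has a prior count of 2, and ratios were compared with an exact permutation test (scipy 1.17.1). DESeq2 1.42.0, other normalizations and filters, a replicate block, each library left out, and background subtraction or an olfactory receptor covariate were alternatives. The tests were also run on simulated counts, with larger fold changes than those of the members and without background or plate effects. Totals of 3641518 to 8371923 counts limit genes with few counts, and counting error is the smallest error these values can have.

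The members and gene lists were chosen with earlier results of these data known. Named were the 5 members, from each list the genes called and the 3 highest per kb by the mean of all libraries, and the 5 genes most like JUNB, the member with both the largest fold change and the highest level; NFATC2, SRF, MAPK8, MAPK9, MMP1, MMP9, MMP13, BATF3, ELK3, WT1, TF, DHH, DMRT1, the neighbours HOOK2, PRDX2 and CCDC85B, and genes at 0 lie outside this rule and were chosen after their values were seen. Ratios between members were added after the data were seen. Some genes that this rule names are not reported here.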

Additional observations from a re-analysis of the deposited data

How the results depend on the processing

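The count of AP-1 members with an adjusted p under 0.05, 1 in the test of all 6 libraries, stayed at 1 with upper-quartile normalization, DESeq2, other filters, background subtraction, the covariate and a further threshold of 1 on the log2 fold change. It was 0 with DESeq2's size factors and 0 to 1 with 1 library left out. The count over all genes, 18, was 63 with DESeq2, 31 without a filter, 31 after background subtraction, 63 with the covariate and 9 to 1855 with 1 library left out (1855 without complement replicate 3 and 327 without baseline replicate 1). The cause of these shifts was not tested. Under upper-quartile normalization the median over all tested genes was 0.13, against 0.018 with TMM (log2 fold change), and JUNB was at 1.53.

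The plates carry the numbers 1 to 3 in both groups. Deviations from the group mean correlated by 0.456, 0.0302 and 0.482 for plates of the same number, and by −0.501 to 0.284 for plates of different numbers. For replicates 1 and 3 the same number gave the highest correlation. For replicate 2 it did not: baseline replicate 2 correlated more with complement replicate 3 (0.0665), and complement replicate 2 more with baseline replicate 1 (0.284). These values do not settle whether a shared number means a shared litter. The main test was kept without a replicate block, and fits with a block are given as alternatives. With a replicate block in edgeR 3 members were called, JUNB, MAFF and ATF3, and 2515 genes in all. With a replicate block in DESeq2 1 member and 469 genes were called.

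FOS, at 0.00039, had log2 fold changes of −0.014 with DESeq2's size factors, −0.041 without a filter, −0.055 in the DESeq2 Wald test, 0.11 with upper-quartile normalization, 0.26 after background subtraction, 0.43 with the covariate, and −0.23 to 0.42 with 1 library left out. JUNB, FOSL1, ATF3 and MAFF kept their direction in all 15 alternative fits. Depth limits MAFF most, where counting error is 5.88% of the mean baseline count.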
